A study of Mus musculus with 12 samples.

Results

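The subject here is a set of 48 genes grouped as liver-secreted plasma proteins, 20 of the complement system and 28 of blood coagulation and fibrinolysis. They were read in liver of newborn mice with and without Ppara. PPARα, its product, is a nuclear receptor that fatty acids activate and that switches on genes of fatty acid breakdown. The members were taken from a list of gene symbols by their role, with earlier results of these arrays known. Of the 48 genes, 45 were measured by a probe set that names the gene alone, 19 of complement and 26 of coagulation, among 19938 genes read this way. C3 and Cpb2 are not analysed here, and Klkb1 was read only by a probe set that it shares with Cyp4v3, so these 3 enter no count of signals.

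Whole liver was taken at postnatal day 2 (P2) from 6 Ppara+/+ and 6 Ppara-/- suckling pups, 3 males and 3 females of each genotype, and each pup was measured on 1 Affymetrix mouse gene array. The Ppara-/- pups carried a germline disruption, so that Ppara was disrupted in every cell type of the body, and both genotypes came from matings of heterozygous mice and suckled under the same conditions. The labels give the strain as SV129, whereas the methods of the study describe a C57BL/6 background. Pups were drawn from 3 litters per genotype, but no label ties a pup to its litter, so p-values measure the spread between pups with litter left out. Values are log2 signals, in which a difference of 1 is a doubling. In bulk liver, fewer cells of a type and less RNA per cell cannot be told apart.

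Complement is a cascade of plasma proteases and binding proteins that tags microbes and damaged cells and can pierce their membranes. Coagulation is a parallel cascade of proteases that ends in the conversion of fibrinogen to fibrin, held in check by inhibitors and reversed by fibrinolysis. Hepatocytes are the main source of most of these proteins, and their transcription in the liver is known to draw on the factors HNF1, HNF4, C/EBP and, in inflammation, STAT3 and NF-kB. In newborns many clotting factors circulate at lower levels than in adults.

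Only C2, F11 and Serpina5 rose in Ppara-/- livers, that is 1 of 19 complement and 2 of 26 coagulation members, and none of the 45 fell (limma, Benjamini-Hochberg adjusted p under 0.05 over all probe sets). Among all 19938 genes, 3.11% were called by the same criterion, 1.99% higher and 1.12% lower. C2 was 1.40-fold, F11 1.16-fold and Serpina5 2.0-fold higher. C2 and Serpina5 also exceeded 1.3-fold, which 0.707% of all genes did upward and 0.567% downward. Transcripts of the abundant clotting proteins had estimates within a few percent of the control level and narrow intervals. Among them were those of all fibrinogen chains, prothrombin, antithrombin and plasminogen. Most of these signals lay near the top of the array range, and whether array response flattens there was not tested. Among arrays left out singly, only 1 Ppara+/+ array, a female (replicate 7), changed the number of members called. Without it 12 members rose, 8 of complement and 4 of coagulation, while 5.35% of all genes were called. C2, F11 and Serpina5 were among the members called when any other single array was left out, and no other member joined them. With adjusted p, other fits and tests gave from 0 members risen (exact Mann-Whitney test) to 10 (array weights), and no member that fell, where the same settings called 0 and 5.49% of all genes.

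To show the sequence context of these genes, the 250 bases before the annotated start are printed for the coagulation members that rose and for the fibrinogen chains, which did not differ detectably. The sequences are those of RefSeq on GRCm38.p6, 5′ to 3′ on the strand of the gene, and a promoter was found for 37 of the 48 members. Of those called, C2 had none in the table. Capitals mark matches, on either strand, to motifs of liver and inflammatory transcription factors: GTTAAT (core of the HNF1 site), AGGTCA (core of nuclear receptor sites, including those of PPARα and HNF4), TTGCGCAA (C/EBP) and TTCNNNGAA (STAT).
Serpina5, chr12:104100863-104101112, + strand: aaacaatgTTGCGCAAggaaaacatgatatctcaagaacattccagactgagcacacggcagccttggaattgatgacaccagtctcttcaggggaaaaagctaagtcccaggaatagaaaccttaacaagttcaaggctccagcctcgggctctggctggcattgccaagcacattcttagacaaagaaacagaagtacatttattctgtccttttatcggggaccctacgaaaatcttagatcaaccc
F11, chr8:45262032-45262281, - strand: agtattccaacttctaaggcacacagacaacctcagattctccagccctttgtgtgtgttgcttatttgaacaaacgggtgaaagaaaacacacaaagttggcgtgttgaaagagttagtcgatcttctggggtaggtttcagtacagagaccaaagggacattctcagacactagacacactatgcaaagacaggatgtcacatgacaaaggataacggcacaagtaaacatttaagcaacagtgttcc
Fga, chr3:83025903-83026152, + strand: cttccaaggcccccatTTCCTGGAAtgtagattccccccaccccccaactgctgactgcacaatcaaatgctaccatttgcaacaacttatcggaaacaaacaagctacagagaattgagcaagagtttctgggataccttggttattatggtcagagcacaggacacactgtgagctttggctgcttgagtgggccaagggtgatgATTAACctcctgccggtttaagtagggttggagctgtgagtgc
Fgb, chr3:83049864-83050113, - strand: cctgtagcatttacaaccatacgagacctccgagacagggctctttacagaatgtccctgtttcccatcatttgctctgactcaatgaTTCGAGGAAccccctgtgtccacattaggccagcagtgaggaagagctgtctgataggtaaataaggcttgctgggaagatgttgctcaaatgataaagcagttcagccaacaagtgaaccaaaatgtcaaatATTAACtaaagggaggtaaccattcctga
Fgg, chr3:83007474-83007723, + strand: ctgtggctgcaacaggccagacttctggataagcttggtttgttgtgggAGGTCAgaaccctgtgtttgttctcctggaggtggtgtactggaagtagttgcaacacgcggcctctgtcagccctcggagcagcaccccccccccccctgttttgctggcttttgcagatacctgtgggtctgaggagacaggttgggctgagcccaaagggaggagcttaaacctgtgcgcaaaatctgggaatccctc

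The Serpina5 sequence held a C/EBP match 242 to 235 bases before the start, and the F11 sequence held no match to any of these motifs. Fga and Fgb each held an HNF1 core near the start, at 43 to 38 and 29 to 24 bases before it, and a STAT match farther out. Fgg held an AGGTCA 201 to 196 bases before the start. Across the 40 promoters of the 37 matched members, the HNF1 core was present in 11 (27.5%) against 6.43% of all 32851 promoters of the same length. AGGTCA was present in 12 (30%) against 14%, TTCNNNGAA in 7 (17.5%) against 7.02% and TTGCGCAA in 1 (2.5%) against 0.164%. F2, F7 and F10 carried AGGTCA about 30 bases before their starts. It also stood near the start in C8b (20 to 15), C6 (40 to 35), Mbl2 (47 to 42), Kng2 (56 to 51) and F5 (57 to 52). No member promoter held an exact direct repeat of AGGTCA spaced by 1 base, the arrangement bound by PPARα with RXR. Only 11 of all promoters did (0.0335%), each also a match to AGGTCA. Nor did any member hold CAAAGTCCA, an HNF4 site (0.384%), or GGGACTTTC, an NF-kB site (0.289%). With letters this rare, absence from 40 promoters says little. The TATA box letters TATAAA stood in 3 (7.5%) against 12.4%. These letters describe short windows and say nothing of binding.

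Across the complement members the median log2 difference, Ppara-/- minus Ppara+/+, was 0.14 with a range of −0.33 to 0.49, and 16 of 19 lay above 0. Across the coagulation members it was 0.04 with a range of −0.05 to 1.0, and 21 of 26 lay above 0. All genes together had a median of −0.01, with 45.1% above 0. The 95% confidence interval of the difference lay wholly within a 1.2-fold change in either direction for 8 of 19 complement and 23 of 26 coagulation members, against 75.1% of all genes. That bound was chosen after the values had been seen. All 6 Ppara-/- arrays lay above all 6 Ppara+/+ arrays for 8 members (C2, C8a, Masp2 and Serping1 of complement, F10, F11, F13b and Serpina5 of coagulation), where 2.88% of all genes were separated this way. For no member did all Ppara-/- arrays lie below, against 1.43% of all genes. A further 6 members, all above 0, had an adjusted p between 0.05 and 0.1: C1s1, C8b, Clu, Masp2 and Serping1 of complement and F13b of coagulation. At an unadjusted p under 0.05, 15 members were higher and 1 lower, where 9.27% and 7.89% of all genes were.

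**Figure D1:**
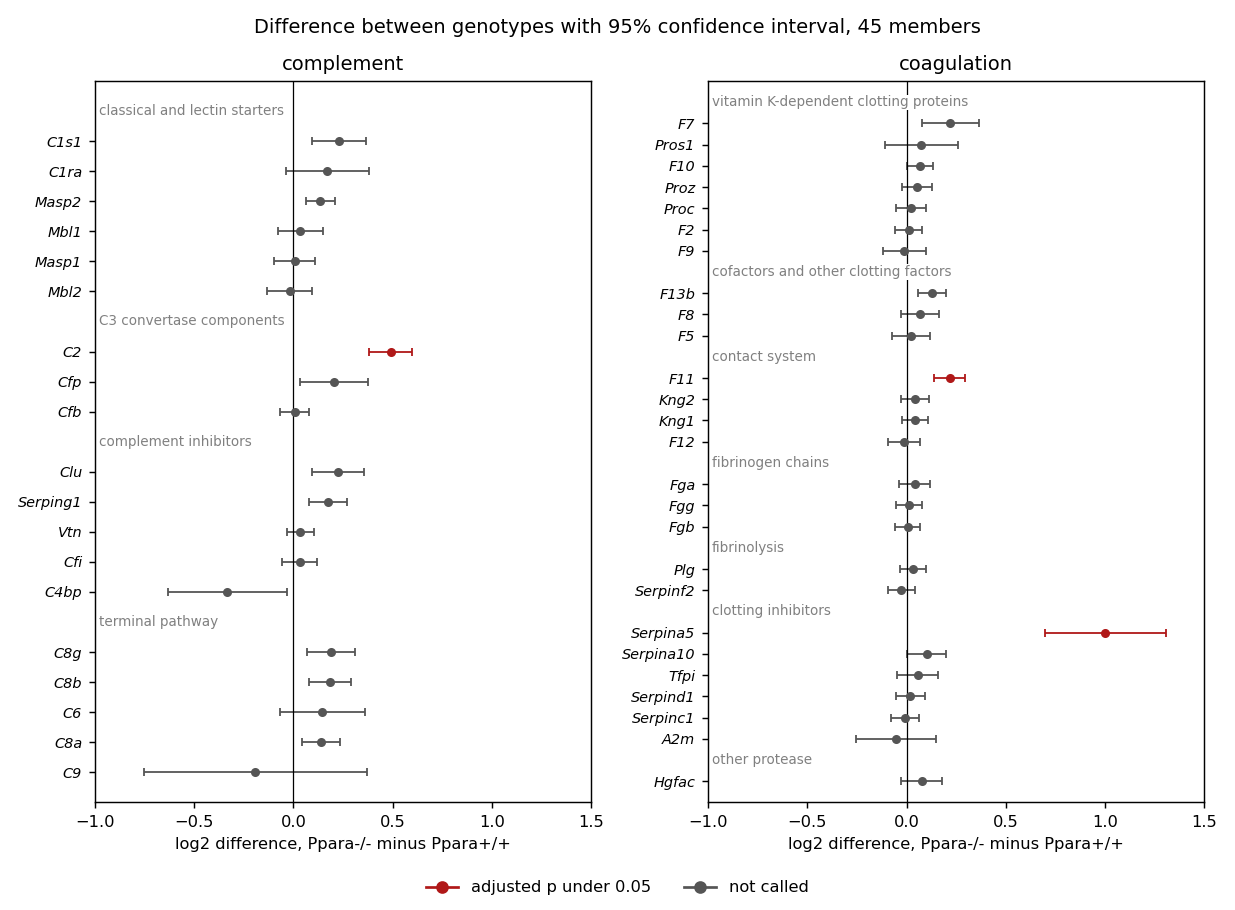
Log2 difference between 6 Ppara-/- and 6 Ppara+/+ livers for the 45 measured members, complement on the left and coagulation on the right, grouped by role. Points are limma estimates, bars their 95% confidence intervals and red marks an adjusted p under 0.05 (C2, F11 and Serpina5). The bars are not adjusted for the number of genes, and those of 10 complement and 6 coagulation members exclude 0. Most coagulation members sit close to 0 with short bars.

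Ppara itself, the disrupted gene, was read at 10.98 to 11.27 in Ppara+/+ and at 10.21 to 10.33 in Ppara-/- livers, a log2 difference of −0.89 (SE 0.0488, adjusted p = 1.20e-06 from limma). The groups did not overlap. Array medians of 7.16 to 7.2 and correlations between arrays of 0.989 to 0.996 showed no array far from the rest as a whole. For the members, however, Ppara+/+ replicate 7 stood apart. It held the highest of the 6 Ppara+/+ values in 16 of 19 complement and 12 of 26 coagulation members. Its mean deviation from the Ppara+/+ average was 0.23 over the complement members, where the other Ppara+/+ arrays ran from −0.12 to 0.06 and the Ppara-/- arrays from 0.07 to 0.15. Over the coagulation members its mean deviation was 0.07, against −0.05 to 0.03 in the other Ppara+/+ arrays and 0.06 to 0.11 in Ppara-/-.

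**Figure D2:**
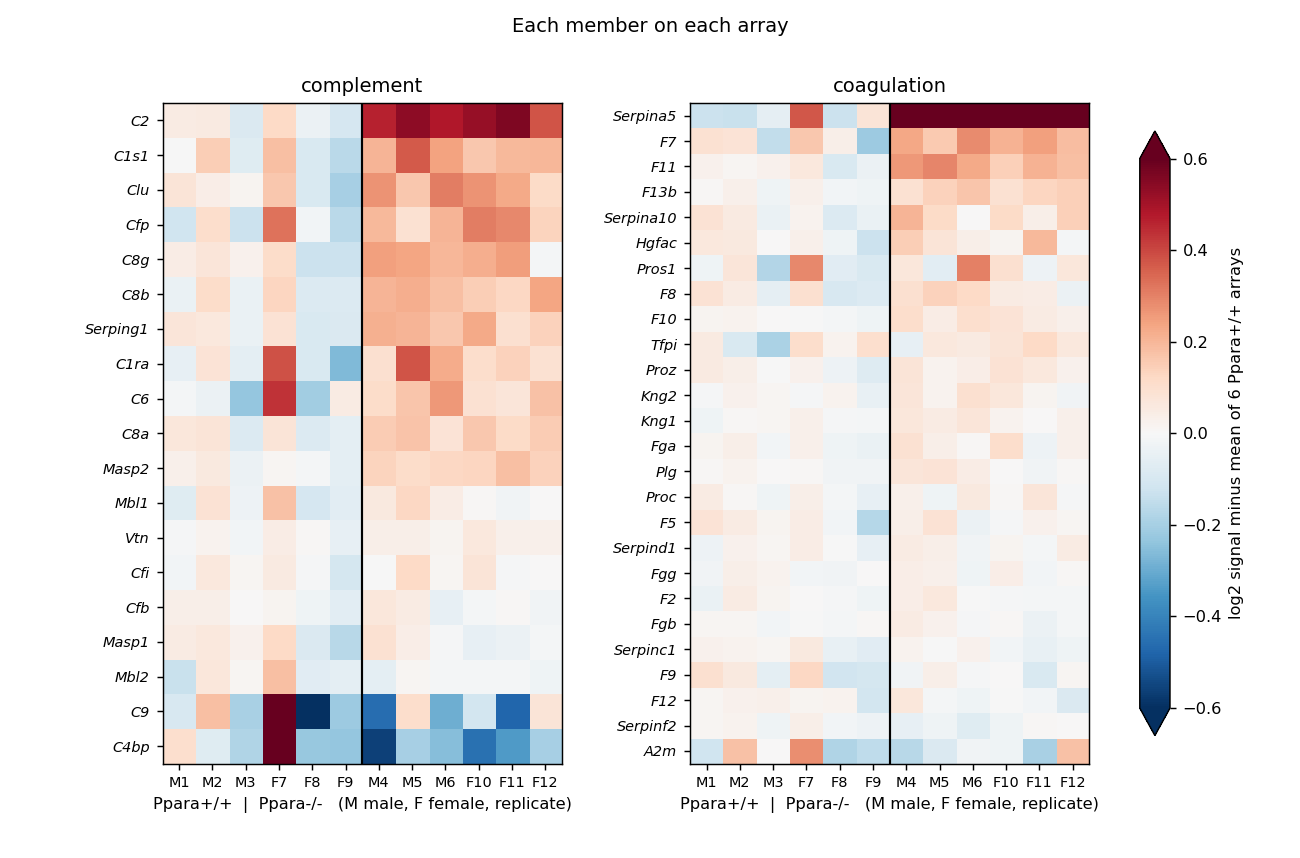
Deviation of each member (rows, ordered by the difference between genotypes) on each array (columns) from the mean of the 6 Ppara+/+ arrays, in log2 units with the colour scale ending at 0.6. The C2 and Serpina5 rows are high on all 6 Ppara-/- arrays, and the column of Ppara+/+ female replicate 7 (F7 on the axis) is high in most complement rows, with C9 and C4bp at the top of the scale.

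The starting steps of complement come first. C1ra and C1s1 encode the proteases of the C1 complex, which opens the classical pathway, Mbl1 and Mbl2 the mannose-binding lectins, and Masp1 and Masp2 the proteases that these lectins carry. None of these 6 genes was called, where 3.11% of all genes were, a share that applies to each group of members below. C1s1 gave 11.60, 11.75 and 11.53 in Ppara+/+ males and 11.78, 11.51 and 11.45 in Ppara+/+ females. In Ppara-/- livers it gave 11.81, 11.97 and 11.85 in males and 11.77, 11.80 and 11.80 in females. The groups overlapped only through Ppara+/+ replicate 7, and the log2 difference of 0.23 (SE 0.0621) had an adjusted p of 0.0928 in limma, or 0.0135 without that array. Over all alternative limma fits the adjusted p of C1s1 ran from 0.0135 to 0.201. Masp2 did not overlap between genotypes, at 11.79 to 11.91 and 11.96 to 12.03, and missed the threshold with a difference of 0.14 (SE 0.0333, adjusted p = 0.0635). C1ra, with a difference of 0.17 (SE 0.0961), was less certain still, and a further probe set that it shares with the near-identical C1rb gave 0.20 (adjusted p = 0.285). Masp1 (0.006), Mbl1 (0.04) and Mbl2 (−0.02) lay near 0.

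C2 and Cfb encode the related proteases that form the C3 convertases of the classical and the alternative pathway, and Cfp encodes properdin, which stabilises the alternative convertase. C2 gave 10.05, 10.06 and 9.92 in Ppara+/+ males and 10.13, 9.97 and 9.90 in Ppara+/+ females. In Ppara-/- livers it gave 10.47, 10.54 and 10.48 in males and 10.53, 10.56 and 10.38 in females. Every Ppara-/- value lay above every Ppara+/+ value, by at least as much as the whole Ppara+/+ range. The means were 10.494 ± 0.066 and 10.004 ± 0.088 (SD, n = 6 each), a log2 difference of 0.49 (SE 0.0502, 95% confidence interval 0.38 to 0.60, adjusted p = 2.87e-04 from limma). Cfb, the gene next to C2 on the chromosome in the RefSeq map, ran from 12.85 to 12.95 in Ppara+/+ and from 12.86 to 12.98 in Ppara-/- livers, with a difference of 0.007 (95% confidence interval −0.07 to 0.08). The intervals of these neighbours did not meet. Cfp had a difference of 0.20 (SE 0.0784, adjusted p = 0.246), with Ppara+/+ replicate 7 at the top of both groups at 11.14.

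Of the complement inhibitors, none was called. C4bp, which binds C4b and is the member with the lowest estimate, gave 9.28, 9.10 and 9.0 in Ppara+/+ males and 9.78, 8.95 and 8.95 in Ppara+/+ females. In Ppara-/- livers it gave 8.62, 8.98 and 8.92 in males and 8.73, 8.83 and 8.98 in females. The groups overlapped, and replicate 7 alone held the value of 9.78. The difference of −0.33 (SE 0.137, adjusted p = 0.281) became −0.20 (adjusted p = 0.211) without that array. Serping1, the C1 inhibitor, which also restrains the contact system, did not overlap between genotypes (12.64 to 12.82 and 12.83 to 12.96) and missed the threshold at 0.17 (SE 0.044, adjusted p = 0.0723). Clu, clusterin, was close to it at 0.22 (SE 0.0597, adjusted p = 0.085). Cfi, the protease that cleaves C3b and C4b, and Vtn, vitronectin, each had a difference of 0.03.

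The terminal genes encode proteins of the membrane attack complex, and none was called. C8a, C8b and C8g, which encode the chains of C8, had differences of 0.14, 0.19 and 0.19 with adjusted p of 0.156, 0.0764 and 0.123. C8a and C8b lie side by side, C8g on another chromosome, and C8a alone was free of overlap between genotypes. C6 had a difference of 0.15 (95% confidence interval −0.07 to 0.36). C9 varied most between pups of one genotype, from 7.08 to 8.94 in Ppara+/+ livers with replicate 7 at the top, so that its interval of −0.75 to 0.37 leaves its direction unsettled.

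**Figure D3:**
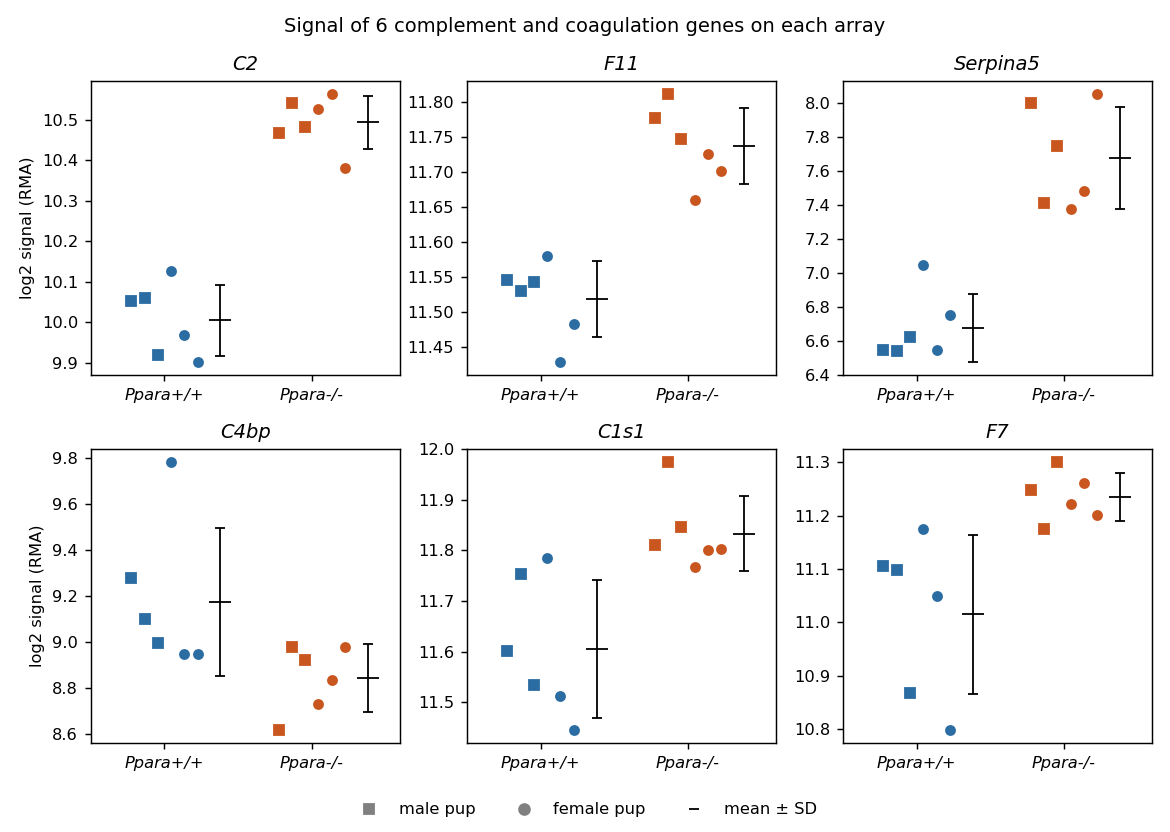
Log2 signal of C2, F11, Serpina5, C4bp, C1s1 and F7 on each of 12 arrays, Ppara+/+ in blue and Ppara-/- in orange, males as squares and females as circles, with mean ± SD (n = 6) beside them and a separate vertical scale per gene. C2, F11 and Serpina5 show no overlap between genotypes, and the single high Ppara+/+ point of C4bp is replicate 7.

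Among the clotting proteins that undergo vitamin K-dependent carboxylation, none of 7 was called, where 3.11% of all genes were. F7, factor VII, which starts clotting with tissue factor, gave 11.11, 11.10 and 10.87 in Ppara+/+ males and 11.17, 11.05 and 10.80 in Ppara+/+ females. In Ppara-/- livers it gave 11.25, 11.17 and 11.30 in males and 11.22, 11.26 and 11.20 in females. The groups touched at 11.17, the value of Ppara+/+ replicate 7, and the difference of 0.22 (SE 0.0652) had an adjusted p of 0.128 in limma, or 0.0476 without that array. Over all alternative limma fits the adjusted p of F7 ran from 0.0476 to 0.280. F10 and Proz follow F7 on the chromosome. F10, factor X, had a difference of 0.07 with groups that did not overlap (12.16 to 12.21 and 12.22 to 12.30, adjusted p = 0.310), and Proz, protein Z, had one of 0.05. Differences were 0.01 for F2 (prothrombin), −0.01 for F9 (factor IX), 0.02 for Proc (protein C) and 0.07 for Pros1 (protein S).

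F5 and F8 encode the cofactors V and VIII, and F13b the carrier subunit of the factor that cross-links fibrin. F13b lay at 11.51 to 11.56 in Ppara+/+ and at 11.62 to 11.70 in Ppara-/- livers. Its groups did not overlap, and its difference of 0.13 (SE 0.0314) missed the threshold at an adjusted p of 0.0635. F5 (0.02) and F8 (0.07) were not called. Liver F8 comes mainly from endothelium rather than hepatocytes.

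F11, factor XI of the contact system, gave 11.55, 11.53 and 11.54 in Ppara+/+ males and 11.58, 11.43 and 11.48 in Ppara+/+ females. In Ppara-/- livers it gave 11.78, 11.81 and 11.75 in males and 11.66, 11.73 and 11.70 in females. All Ppara-/- values were higher than all Ppara+/+ values. The difference was 0.22 (SE 0.0357, 95% confidence interval 0.14 to 0.30, adjusted p = 0.00681 from limma), a small change measured with little spread. The neighbouring Klkb1, prekallikrein, was read only together with Cyp4v3 (0.14, adjusted p = 0.232). F12, factor XII, which starts the contact pathway, had a difference of −0.01, and Kng1 and Kng2, the adjacent kininogen genes, each had one of 0.04.

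Fga, Fgb and Fgg, which encode the fibrinogen chains and lie in 1 cluster, had differences of 0.04, 0.005 and 0.01, with 95% confidence intervals of −0.04 to 0.12, −0.06 to 0.07 and −0.06 to 0.08. Fgb spanned only 13.67 to 13.70 in Ppara+/+ and 13.65 to 13.74 in Ppara-/- livers. A further probe set of Fga also gave 0.04. Plg, plasminogen, the source of plasmin, had a difference of 0.03, and Serpinf2, the plasmin inhibitor, one of −0.03. Of all members, 10 had a mean signal over 13, where the brightest probe set of each array lay at 14.51 to 14.60. Their differences ran from −0.03 to 0.04 and none was called, whereas 6.19% of the 113 genes in that range were. Whether array response flattens at such signals was not tested.

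Serpina5 encodes the protein C inhibitor, a serpin known in adult mice mainly from the reproductive tract. It gave 6.54, 6.54 and 6.62 in Ppara+/+ males and 7.04, 6.54 and 6.75 in Ppara+/+ females. In Ppara-/- livers it gave 8.00, 7.41 and 7.74 in males and 7.37, 7.48 and 8.05 in females. The groups did not overlap, and the Ppara-/- pups spread widely. The means of 7.67 ± 0.30 and 6.67 ± 0.20 (SD, n = 6 each) differed by 1.0 (SE 0.138, 95% confidence interval 0.699 to 1.304, adjusted p = 0.00225 from limma). All Ppara+/+ values were under the median signal of their arrays, a range in which the size of a difference is less certain than its sign. The other inhibitors were Serpinc1 (antithrombin, −0.007), Serpind1 (heparin cofactor II, 0.02), Serpina10 (protein Z-dependent inhibitor, 0.10), Tfpi (tissue factor pathway inhibitor, 0.05) and A2m (α2-macroglobulin, −0.05), and none was called. Hgfac, a protease that activates hepatocyte growth factor, had a difference of 0.08.

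**Figure D4:**
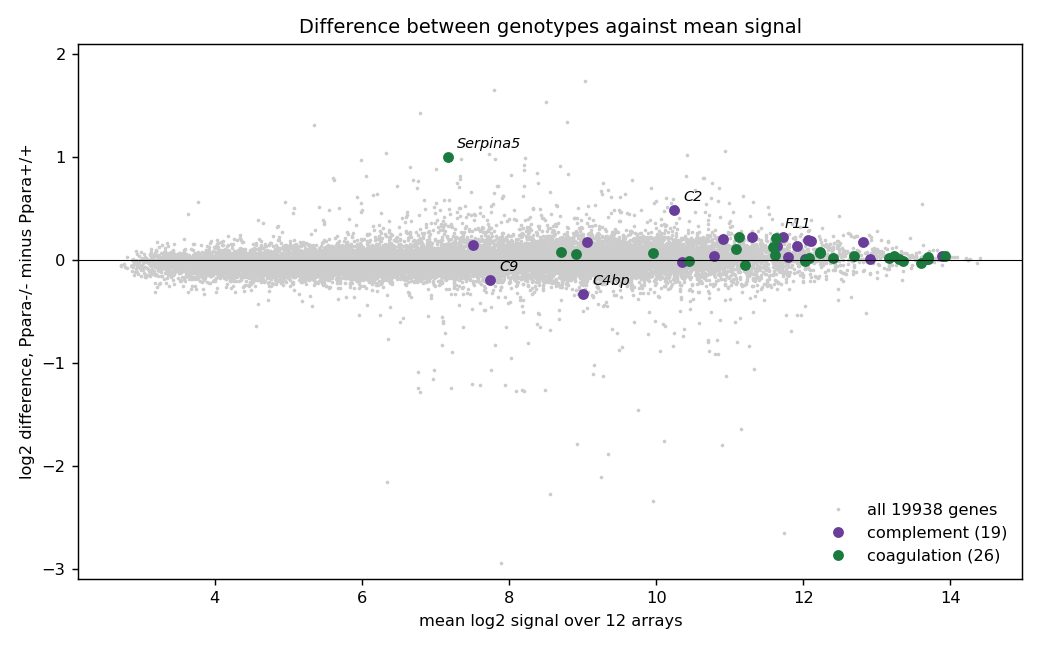
Log2 difference between genotypes (vertical) against mean log2 signal over 12 arrays (horizontal) for all 19938 genes in grey, complement members in purple and coagulation members in green. Serpina5 and C2 lie at the edge of the grey cloud at their signal, and the members over a signal of 13 lie along 0.

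Within the sexes the same genes were tested in a fit of 4 groups. C2 rose in both, by 0.49 in males (adjusted p = 0.0180) and 0.49 in females (adjusted p = 0.0179). Serpina5 rose in males (1.15, adjusted p = 0.0297) and had a difference of 0.86 in females (adjusted p = 0.115), and F11 had differences of 0.24 and 0.20 that passed in neither sex. These calls were lost when certain single arrays were left out: no member was called in males without replicate 1, 2, 3, 4 or 6, and none in females without replicate 8, 9, 10 or 11. Thus 2 members were called in males and 1 in females, where 0.928% and 0.808% of all genes were. The interaction of genotype and sex was called for 0 members and 0 genes in limma, with 0 members and 1.79% of genes at an unadjusted p under 0.05. For Serpina5 it was −0.29 (SE 0.275). Between females and males 0 members differed, against 0.0401% of genes. At an unadjusted threshold of 0.05 only Tfpi did, with a log2 signal 0.11 higher in females, and 2.78% of genes did.

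Further genes of both cascades were read from lists of other members. Of all genes, 1.99% were called higher and 1.12% lower at an adjusted p under 0.05. Of 30 measured other complement genes 1 rose and none fell: C1rl, a C1r-like protease, by 0.22 (adjusted p = 0.0228). The largest estimates were those of C5ar1, the C5a receptor (0.29, adjusted p = 0.0713), and Vsig4, a C3b receptor of macrophages (0.28, adjusted p = 0.164). Of 22 measured other coagulation and fibrinolysis genes 3 rose and none fell. These were F3, tissue factor (0.32, adjusted p = 0.0166), Hrg, histidine-rich glycoprotein (0.18, adjusted p = 0.00846), and F2r, a thrombin receptor (0.19, adjusted p = 0.0203). The F3 signal was close to the array medians, at 6.72 to 7.03 in Ppara+/+ and 7.07 to 7.32 in Ppara-/- livers. The medians of these lists were 0.10 and 0.09.

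None of 9 genes for the maturation and secretion of clotting factors was called, where 1.99% of all genes rose and 1.12% fell. Lman1, the cargo receptor for factors V and VIII, came nearest with 0.13 (adjusted p = 0.0531), Tpst2, a tyrosine sulfotransferase, had 0.14 (adjusted p = 0.223), and Ggcx, the vitamin K-dependent carboxylase, had 0.11 (adjusted p = 0.334). Of 17 measured regulators of hepatic and acute phase transcription none was called either. Hnf4a had a difference of 0.03 and Cebpa one of 0.10, and the largest were those of Foxa1 (0.16, adjusted p = 0.0861) and Nr1h4, the bile acid receptor (−0.14, adjusted p = 0.319). Of 20 acute phase proteins 3 rose, Orm1 (1.53, adjusted p = 3.11e-04), Saa3 (0.66, adjusted p = 0.00206) and Lcn2 (0.23, adjusted p = 0.0189), and none fell. Hamp, hepcidin, had a difference of 1.05 with an adjusted p of 0.209.

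Markers of the cell types in the liver were read beside these results. Of 11 hepatocyte markers 8 lay above 0 with a median of 0.02, and only Fabp1, itself a PPARα target, was called (−0.51, adjusted p = 1.00e-05), while Tat, tyrosine aminotransferase, had a difference of −0.14 and Alb, albumin, one of −0.003 and a signal of 14.19 to 14.27 over the 12 arrays. Of 13 Kupffer cell markers none was called, but all lay above 0 with a median of 0.19, led by Vsig4 (0.28) and the scavenger receptor Marco (0.25), and they share C1qa, C1qb, C1qc and Vsig4 with the list of other complement genes. The log2 of their summed linear signals ran from 13.69 to 14.10 in Ppara+/+ and from 13.98 to 14.12 in Ppara-/- livers. Ppara+/+ replicate 7 had a mean Kupffer deviation of 0.26, against −0.16 to 0.06 in the other Ppara+/+ and 0.13 to 0.27 in the Ppara-/- arrays. Of 13 endothelial markers none was called, with all above 0, a median of 0.14 and the largest estimates in Cdh5 (0.24) and Ehd3 (0.21). The log2 of the summed endothelial signals ran from 13.90 to 14.09 in Ppara+/+ and from 14.08 to 14.19 in Ppara-/- livers. Of 11 erythroid markers none was called, with all below 0, a median of −0.18 and the lowest estimates in Epb42 (−0.26) and Rhd (−0.23). The log2 of the summed erythroid signals ran from 15.12 to 15.49 in Ppara+/+ and from 15.02 to 15.39 in Ppara-/- livers. Replicate 7 had the lowest erythroid value of the Ppara+/+ arrays, a mean deviation of −0.26. The part of these cell types in the complement and coagulation differences was not tested. Markers of granulocytes (10 measured) had a median of 0.07, led by Mpo (0.16) and Elane (0.13), and those of megakaryocytes (5 measured) had 0.05, led by Itgb3 (0.09) and Itga2b (0.06). Stellate cell markers (7 measured) had a median of 0.10, led by Lrat (0.17) and Pdgfrb (0.11). Bile duct markers (5 measured) had a median of 0.07, led by Epcam (0.30) and Cftr (0.09). Their mean deviation was 0.56 on Ppara-/- replicate 11, against −0.07 to 0.09 on the other Ppara-/- and −0.17 to 0.21 on the Ppara+/+ arrays. No granulocyte, megakaryocyte, stellate cell or bile duct marker was called. Of all genes, 3.11% were called and 45.1% lay above 0.

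**Figure D5:**
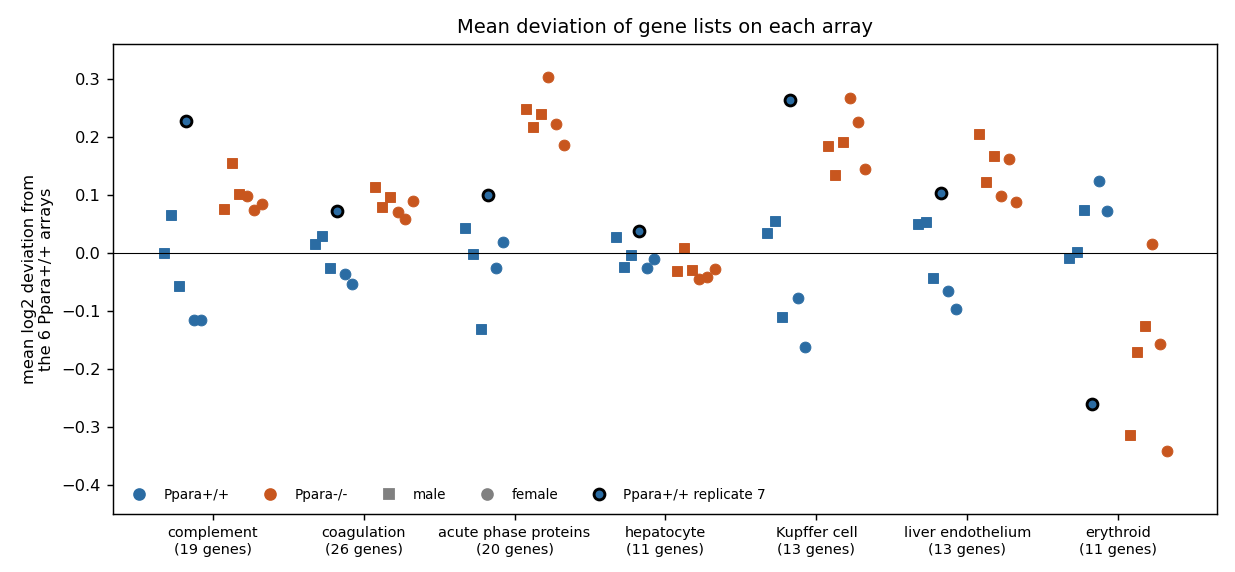
Mean log2 deviation of each gene list from the 6 Ppara+/+ arrays (vertical) on each array, Ppara+/+ in blue and Ppara-/- in orange, males as squares and females as circles. The outlined point is Ppara+/+ replicate 7, which lies at 0.23 for complement, 0.26 for Kupffer cell markers and −0.26 for erythroid markers.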

How the data were processed

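Total RNA of P2 livers with an integrity number above 8 was hybridised by the authors to Affymetrix MoGene 1.0 ST arrays. The log2 signals deposited for 35556 probe sets come from RMA (version not given in the sources used here) and were taken without further normalization. By the platform annotation, 21789 probe sets named 1 gene, 1621 several and 12146 none. Where several named a gene alone, the brightest by mean over 12 arrays stood for it.

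Models were fitted with limma 3.58.1 (lmFit, eBayes) in R 4.3.3, on genotype plus sex (9 residual and 2.49 prior degrees of freedom) or, for contrasts within sexes and the interaction, on 4 groups. P-values were two-sided, with Benjamini-Hochberg adjustment across probe sets and calls at 0.05. The number of arrays, 12, limits the precision. The calculation was tested on simulated data.

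The members, gene lists, motifs and naming rule were chosen with earlier results of these data known. Array values are given for members called and for the 3 members of complement and of coagulation with the largest absolute differences. Of other lists, those called and the 2 largest are given, with a few more chosen after their values were seen (Ggcx, Hnf4a, Cebpa, Alb). Results were recomputed in 24 other ways that leave out each array in turn (12) or change the model, normalization, filter, probe set rule, test or threshold, and in 1 more, chosen after seeing the data, that leaves out 2 Ppara-/- arrays together. Arrays of fetal liver were not analysed here.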

Additional observations from a re-analysis of the deposited data

Results flagged for a closer look

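C8g in the Ppara-/- female of replicate 12 had a log2 signal of 11.95, apart from the other Ppara-/- livers, the nearest of which was at 12.16. F12 in the Ppara+/+ female of replicate 9 had 11.92, with the nearest other Ppara+/+ liver at 12.04. These were 2 of 92 sets of 6 values examined for a single distant array, where chance alone gives about 5%. Neither gene was called between genotypes.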

How the results depend on the processing

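C2, F11 and Serpina5 kept their direction in all 24 alternatives other than the 1.3-fold threshold and passed in 23 of them. The exception was an exact Mann-Whitney test with adjustment, which passed no gene at all, and so not Ppara (−0.89, adjusted p = 0.0691). Its smallest two-sided p for 6 against 6 is 0.00216 before adjustment, shared by all genes without overlap, so it cannot tell these genes apart. In limma, 16 members had an unadjusted p under 0.05. The count of complement members that rose was 1 in the main fit. It became 2 without the sex term (3.46% of all genes called) and 6 above the 40th percentile of signal (7.56%). Further settings gave 5 with probe sets of 1 gene (4.67%), 6 with a robust variance trend (4.49%) and 7 with array weights (5.49%). There were 6 with probe sets averaged per gene (4.67%) and 9 with unadjusted p (17.2%). Mann-Whitney gave 0 (0%), and leaving out single arrays gave 1 to 8 (2.13% to 5.35%). With unadjusted p 1 fell (C4bp). The count of coagulation members that rose, 2, became 3 in each of the first 6 of those settings, with F13b added. It became 1 above 1.3-fold (1.27%), 6 with unadjusted p (17.2%) and 0 by Mann-Whitney (0%). Leaving out single arrays gave 2 to 4 (2.13% to 5.35%). The cause of these shifts was not tested. Joining C2, F11 and Serpina5 without Ppara+/+ female replicate 7 were C1ra, C1s1, C8b, C8g, Cfp, Serping1, Clu, F7 and F13b. Members called within females, 1, became 3 with the robust trend, 4 with array weights, 12 with unadjusted p, 0 to 1 without single arrays (0 without replicate 8, 9, 10 or 11) and 0 without Ppara-/- replicates 6 and 10. Those within males, 2, became 3 above the 40th percentile, with the robust trend and with array weights, 9 with unadjusted p, 0 to 2 without single arrays (0 without replicate 1, 2, 3, 4 or 6, and 1 without 5 or 9) and 0 without replicates 6 and 10. Shares of all genes within each sex were not computed for these settings. In the fit over both sexes they were 4.49% with the robust trend, 5.49% with array weights, 7.56% above the 40th percentile and 17.2% with unadjusted p. Between the sexes, 0 members became 1 with unadjusted p, where 2.78% of all genes were called. No paired analysis was possible because no label gives the litter of a pup. Low signal limits Serpina5, C6 and C9.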
